A study of Rattus norvegicus with 16 samples.

Results

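Whole sciatic nerve of the rat taken 5 days after a crush was compared with uncrushed whole nerve, and the response of the tissue was described across all genes. The comparison uses 4 of the 16 libraries of the series, 2 per group, which were picked by their labels and by no measured value. In the crushed group the left sciatic nerve was crushed with forceps at mid-thigh on postnatal day 18, under isoflurane and with carprofen for analgesia, and only the stretch of nerve distal to the crush was kept. The uncrushed group is the equivalent stretch of naive nerve, with no sham operation, and its labels give postnatal day 18 as well, so the effects of the crush, of surgery and drugs and of any difference in age at collection cannot be told apart. Each library was made from the pooled RNA of at least 10 nerves. The series also holds whole nerve at 3 and 7 days after crush and Schwann cells purified by immunopanning at the same time points, and these serve here only to show where day 5 of the whole nerve differs from them.

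A myelinated peripheral nerve holds axons, the Schwann cells that wrap them, the fibroblasts and perineurial cells of its sheaths, blood vessels, macrophages and mast cells. When axons are cut off from their cell bodies they break down, a process called Wallerian degeneration. Schwann cells then leave the myelinating state, digest myelin, divide and take on a repair state in which they secrete trophic factors, while macrophages enter from the blood and clear debris.

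Of 15831 genes tested, 6082 were called at an adjusted p below 0.05, which is 38.4% of them. Of these, 2993 genes were higher at day 5 (18.9%) and 3089 lower (19.5%). The balance depends on the fit, since that of all 16 libraries called 3530 higher and 2503 lower. These percentages are the background for the counts given for each gene group. The largest changes were more often falls, since 318 called genes were at least 8-fold lower and 187 at least 8-fold higher. At 32-fold the counts were 81 lower and 56 higher. The median log2 fold change over all genes tested was -0.01. Calls were made with edgeR's quasi-likelihood test and Benjamini-Hochberg adjustment, log2 fold changes are day 5 minus uncrushed and carry their standard error (± SE, n = 2 libraries per group), and "rose" and "fell" are used of called genes alone. With 2 libraries against 2, the smallest p that an exact two-sided permutation test of a single gene can give is 0.333, so the p-values rest on the spread shared by the 8 whole nerve libraries. The labels do not say whether the 2 libraries of a group came from separate sets of animals.

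**Figure D1:**
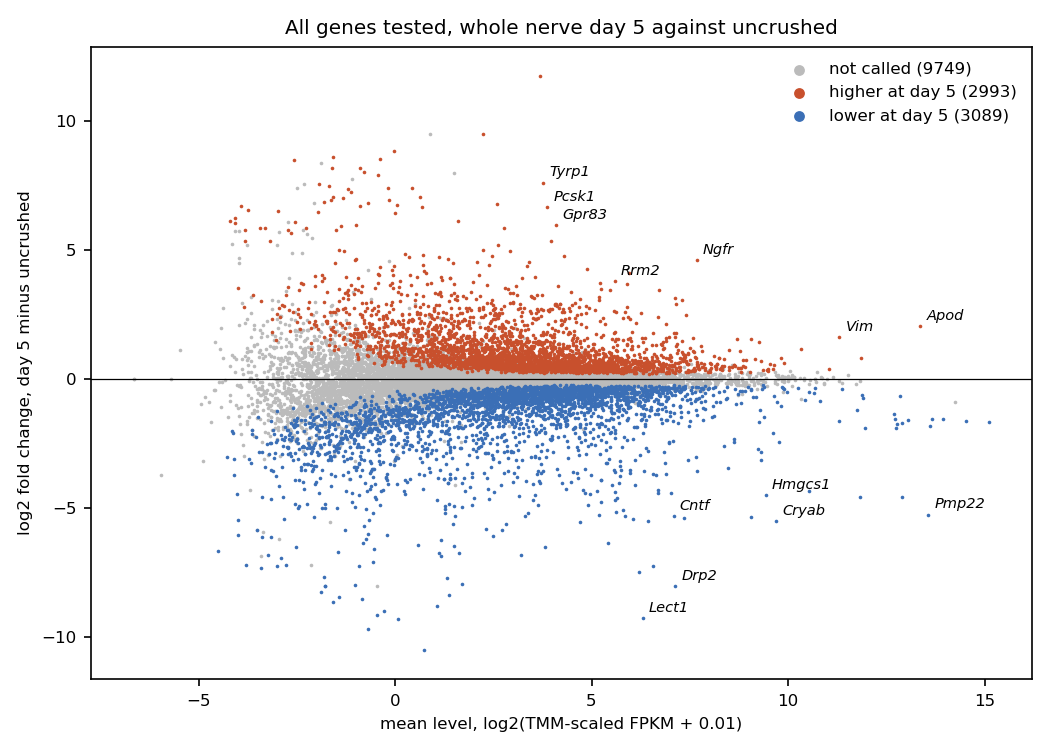
Each point is 1 of 15831 genes, with its mean level over the uncrushed and day 5 whole nerve libraries on the horizontal axis (log2 of TMM-scaled FPKM with 0.01 added) and its log2 fold change, day 5 minus uncrushed, on the vertical axis. The 2993 genes called higher and the 3089 called lower are coloured, and the abundant myelin gene Pmp22 lies far below 0; the fold changes of genes with 3 counts or fewer per library in 1 group depend on the prior count of the fit.

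Depth was 15635624 and 10555067 expected counts in the uncrushed libraries and 15674976 and 17342011 at day 5. Levels are given per gene length, as the FPKM estimated by RSEM divided by the TMM factor of the library, the factor that edgeR used to make libraries comparable (called scaled FPKM below). That factor was 0.811 and 0.808 in the uncrushed libraries against 1.07 in both at day 5. The difference between groups exceeded the difference within them, with a root mean square log2 difference over genes of 0.647 between the uncrushed libraries, 0.489 between the day 5 libraries and 1.08 to 1.18 across groups. A few genes took up much of the uncrushed libraries, where the 10 most abundant genes held 23.9% to 24.2% of counts against 12.2% to 12.9% at day 5. The 13 genes of the mitochondrial genome, of which 4 were among those 10 in each uncrushed library and 3 in each day 5 library, held 14.2% to 15.6% of counts in the uncrushed libraries and 6.24% to 6.39% at day 5. All 13 of these genes fell, with log2 fold changes of -2.08 to -1.52. Their part in other results was examined only by leaving out these genes and the 18S ribosomal RNA gene Rn18s. That analysis called 6065 genes, and all 191 values of named genes in it kept their direction and side of the threshold.

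The libraries carried the defining markers of nerve. Sox10, the transcription factor that marks the Schwann cell lineage, was at 26.5 and 35.5 scaled FPKM in the uncrushed libraries and 30.5 and 33.2 at day 5, a difference within the spread of the libraries (log2 fold change 0.04, adjusted p = 0.871). Of the 6 genes listed as Schwann lineage markers 3 rose and 1 fell. Erbb3, the neuregulin receptor of Schwann cells, rose from 35.7 and 42.5 to 80.3 and 96.8 scaled FPKM (log2 fold change 1.18 ± 0.14, adjusted p = 1.12e-04), and S100b, the calcium-binding protein widely used as a Schwann cell marker, fell from 2430 and 2190 to 1194 and 1375 (log2 fold change -0.85 ± 0.11, adjusted p = 1.60e-04). In bulk tissue, fewer cells of a type and less RNA per cell cannot be told apart, and this holds for every change given here.

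The myelin protein genes lost most of their RNA. Of 16 tested, 14 fell and none rose, with a median log2 fold change of -4.02. Pmp22, a membrane protein of compact myelin, was at 20622 and 26527 scaled FPKM in the uncrushed libraries and at 605 and 652 at day 5 (log2 fold change -5.24 ± 0.17, adjusted p = 1.27e-08). Mbp, myelin basic protein, fell from 6762 and 7267 to 303 and 313 (log2 fold change -4.54 ± 0.10, adjusted p = 1.55e-09). Pmp2, a fatty acid binding protein of myelin, fell from 2830 and 2860 to 143 and 143 (log2 fold change -4.32 ± 0.10, adjusted p = 1.55e-09).

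The steepest falls in this group were not those of the most abundant genes. Drp2, which with periaxin forms the complex that links the Schwann cell surface to the basal lamina, was at 273 and 281 scaled FPKM in uncrushed nerve and at 1.03 and 1.16 at day 5 (log2 fold change -8.00 ± 0.18, adjusted p = 1.55e-09). Its partner Prx fell from 306 and 330.0 to 7.32 and 7.98 (log2 fold change -5.38 ± 0.18, adjusted p = 1.65e-08). Ncmap, a membrane protein of non-compact myelin, fell from 137 and 156 to 0.579 and 1.02 (log2 fold change -7.48 ± 0.33, adjusted p = 8.10e-08). In all 3 genes both day 5 libraries lay far under either uncrushed library. Cnp, an enzyme of non-compact myelin, was at 169 and 195 and then at 157 and 166, which did not pass the test (log2 fold change -0.17 ± 0.12, adjusted p = 0.288), and neither did Tspan2 (log2 fold change -0.28 ± 0.15, adjusted p = 0.161). Tspan2 was called without uncrushed replicate 2 (log2 fold change -0.50).

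Of 10 genes listed as transcription factors of myelination 3 fell and 2 rose. Egr2, the factor that drives myelin genes, fell from 44.6 and 51 to 8.79 and 10.2 scaled FPKM (log2 fold change -2.35 ± 0.16, adjusted p = 1.85e-06), and Nab1, its corepressor, from 41.4 and 43.4 to 14.6 and 14.7 (log2 fold change -1.53 ± 0.09, adjusted p = 4.93e-07). Pou3f1, which acts in Schwann cells on the way to myelination, rose from 2.49 and 4.11 to 11.4 and 14.2 (log2 fold change 1.98 ± 0.21, adjusted p = 4.23e-05), and the related Pou3f2 rose less (log2 fold change 0.51 ± 0.17, adjusted p = 0.0371). The third gene that fell was Mlip (log2 fold change -2.38 ± 0.10, adjusted p = 7.79e-08), a lamin-interacting protein known from muscle and no transcription factor of myelination. Without it 2 of 9 fell, near the background of 19.5%. Pou3f2 was not called without any 1 of the 4 libraries (log2 fold changes 0.45 to 0.60).

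**Figure D2:**
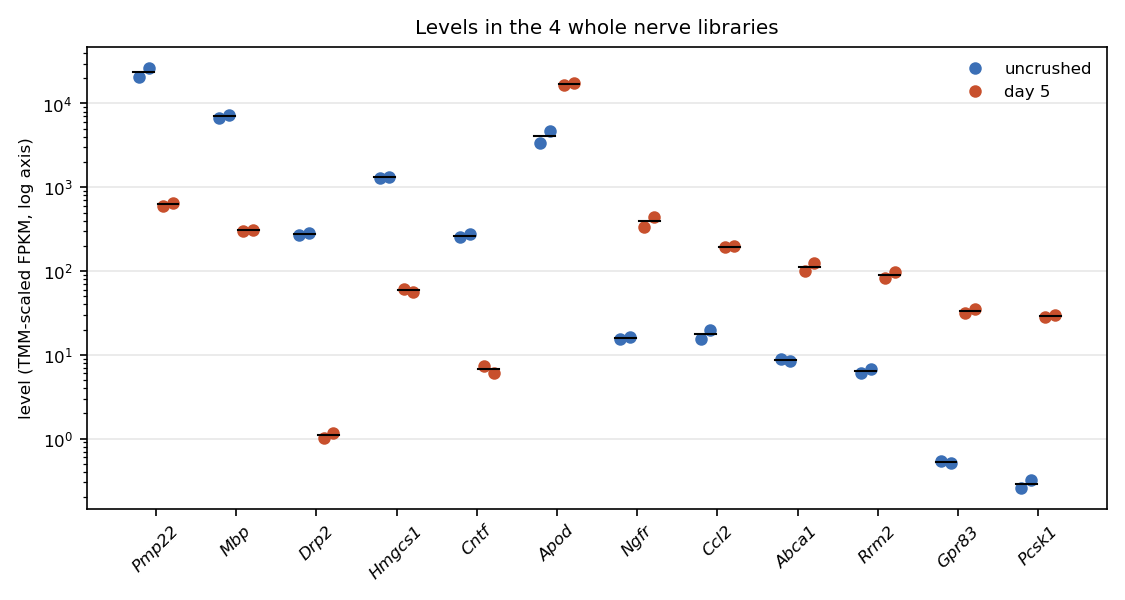
Levels of 12 genes in each of the 4 libraries (TMM-scaled FPKM, log axis), with points for single libraries and lines for the means of 2 libraries. The libraries of a group lie close together in each gene, with Pmp22, Mbp, Drp2, Hmgcs1 and Cntf lower at day 5 and Apod, Ngfr, Ccl2, Abca1, Rrm2, Gpr83 and Pcsk1 higher.

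Cholesterol synthesis, which supplies the most abundant single lipid of myelin, fell as a whole pathway. All 20 genes tested fell, with log2 fold changes of -1.54 (Mvk) to -5.40 (Idi1) and a median of -3.60. Hmgcs1, the synthase that makes HMG-CoA, was the most abundant of them and went from 1303 and 1335 to 61.5 and 56.2 scaled FPKM (log2 fold change -4.49 ± 0.10, adjusted p = 1.55e-09). Idi1, the isopentenyl diphosphate isomerase, fell from 119 and 142 to 3.69 and 2.52 (log2 fold change -5.40 ± 0.18, adjusted p = 1.56e-08). Sc5d, one of the last enzymes of the pathway, fell from 134 and 157 to 13.9 and 15.4 (log2 fold change -3.56 ± 0.10, adjusted p = 4.98e-09). Of 10 genes that regulate sterol levels 5 fell and 1 rose. Srebf2, the transcription factor that drives the pathway, fell from 8.96 and 10.5 to 3.31 and 3.51 (log2 fold change -1.51 ± 0.14, adjusted p = 1.72e-05). The riser was Mylip, a ubiquitin ligase of sterol control (log2 fold change 0.66 ± 0.11, adjusted p = 9.88e-04).

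The promoters of Hmgcs1 and Idi1, the most abundant and the most changed gene of this pathway, are shown because all members of the list fell together and most carry the same short motif. Each is the stretch of 300 bases at the annotated start, most of it upstream, from RefSeq, build GRCr8, with the motif CCAAT (read on both strands, so also as ATTGG) in capitals. Hmgcs1 lies at chr2:53382054-53382353 on the + strand and Idi1 at chr17:66547475-66547774 on the - strand.
Hmgcs1: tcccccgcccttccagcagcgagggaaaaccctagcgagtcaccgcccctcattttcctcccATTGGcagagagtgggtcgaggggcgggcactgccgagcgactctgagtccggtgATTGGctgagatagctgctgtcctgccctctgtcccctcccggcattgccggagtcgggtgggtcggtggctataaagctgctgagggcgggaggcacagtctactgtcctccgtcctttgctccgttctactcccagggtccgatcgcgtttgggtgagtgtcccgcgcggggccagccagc
Idi1: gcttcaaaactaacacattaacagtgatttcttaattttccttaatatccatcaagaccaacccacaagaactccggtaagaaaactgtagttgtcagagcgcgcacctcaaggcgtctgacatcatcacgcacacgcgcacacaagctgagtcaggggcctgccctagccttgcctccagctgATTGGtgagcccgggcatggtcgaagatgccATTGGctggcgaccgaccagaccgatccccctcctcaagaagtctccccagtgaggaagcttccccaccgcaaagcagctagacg
Both hold 2 copies of the motif. Among the 15 cholesterol genes with an annotated promoter in the table, 12 hold it (80.0%), against 10873 of all 27457 genes (39.6%) and 4 of 13 myelin protein genes (30.8%). A match is a description of the letters and not of binding.

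Genes of fatty acid and sphingolipid synthesis also fell, but with exceptions. Of 19 tested, 12 fell and 3 rose, with a median of -1.04. Ugt8, which makes the galactosylceramide of myelin, fell from 1116 and 1177 to 121 and 139 scaled FPKM (log2 fold change -3.13 ± 0.10, adjusted p = 1.27e-08), and Fa2h, which hydroxylates its fatty acid, from 94.8 and 129 to 2.78 and 2.95 (log2 fold change -5.29 ± 0.18, adjusted p = 1.88e-08). Elovl7, a fatty acid elongase, fell from 83.3 and 86.2 to 1.15 and 0.944 (log2 fold change -6.34 ± 0.29, adjusted p = 9.68e-08). The stearoyl-CoA desaturases moved in opposite directions. Scd2, the more abundant of them in uncrushed nerve, fell from 3841 and 3731 to 1167 and 1282 (log2 fold change -1.63 ± 0.09, adjusted p = 3.67e-07), while Scd rose from 223 and 193 to 736 and 504 (log2 fold change 1.57 ± 0.28, adjusted p = 0.00131). The other risers were the fatty acid desaturases Fads1 and Fads2 (log2 fold change 0.70 ± 0.09 and log2 fold change 0.58 ± 0.14). Fatty acid synthase, Fasn, was at 18.8 and 22 and 24.5 and 19.1 and did not pass the test (log2 fold change 0.10, adjusted p = 0.73). Fads2 was not called without day 5 replicate 2 (log2 fold change 0.47) or uncrushed replicate 1 (log2 fold change 0.46).

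Genes of the node of Ranvier and of the contact between axon and Schwann cell fell in 10 of 19 cases and rose in 2. The potassium channel genes Kcna1 and Kcna2, whose products lie beside the node, went from 148 and 193 to 3.16 and 4.37 and from 88.5 and 128 to 3.14 and 3.00 scaled FPKM (log2 fold change -5.50 ± 0.29, adjusted p = 2.51e-07, and log2 fold change -5.07 ± 0.19, adjusted p = 2.87e-08). Nfasc, neurofascin, fell from 13.3 and 17 to 0.71 and 1.2 (log2 fold change -3.98 ± 0.23, adjusted p = 5.21e-07). Gldn, gliomedin, which gathers sodium channels at the node, fell from 42.9 and 48.4 to 3.44 and 3.88 (log2 fold change -3.64 ± 0.12, adjusted p = 1.48e-08). The genes that rose were the potassium channel Kcnj10 (log2 fold change 0.78 ± 0.15) and the membrane linker Ezr (log2 fold change 0.64 ± 0.11).

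Genes of the repair state of Schwann cells rose in 18 of 25 cases and fell in 3, with a median of 2.62, or 2.33 when genes at 0 in uncrushed nerve are set at their bound. Among transcription factors, Jun, a known regulator of this state, rose from 12.6 and 11.6 to 35.9 and 38.3 scaled FPKM (log2 fold change 1.61 ± 0.12, adjusted p = 3.85e-06). Runx2 rose from 1.02 and 0.767 to 17.5 and 21.7 (log2 fold change 4.40 ± 0.17, adjusted p = 4.08e-08) and Sox2, a factor of immature Schwann cells, from 0.962 and 1.49 to 12.6 and 14.5 (log2 fold change 3.50 ± 0.26, adjusted p = 3.33e-06). Atf3, a stress-induced factor, rose from 4.11 and 7.01 to 40.2 and 43.9 (log2 fold change 2.95 ± 0.21, adjusted p = 2.27e-06).

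Ligands of the repair list included genes that were almost silent in uncrushed nerve. Gdnf, glial cell line-derived neurotrophic factor, had 1 and 0 counts in the uncrushed libraries and 143 and 185 at day 5, a ratio of 197 after scaling with an exact 95% interval of 35.1 to 7798, which covers counting error only. Fgf5, a fibroblast growth factor, had 1 and 3 counts against 130 in each day 5 library (ratio 39, interval 15.1 to 144). Both values rest on few counts: the fitted log2 fold change was 7.40 for Gdnf, 10.24 without uncrushed replicate 1 and 6.75 without uncrushed replicate 2, and for Fgf5 it was 5.22, 4.37 and 6.42 in the same order; with a group at 0 counts the fit depends on its prior count. Btc, betacellulin, a ligand of the EGF receptor family, had 2 counts in each uncrushed library and 83 and 138 at day 5 (ratio 33.2, interval 12.8 to 123). Shh, sonic hedgehog, and Bdnf, brain-derived neurotrophic factor, had no count in either uncrushed library. Against a floor of 3 counts per library Shh was at least 4.39-fold higher at day 5, with 18 and 28 counts, and Bdnf at least 7.84-fold, with 25 and 58 counts. At day 5 both stayed under 1 scaled FPKM, and Gdnf was at 2.43 and 2.9. The fitted log2 fold change of Bdnf, which depends on the prior count, was 8.21, and 7.54 without day 5 replicate 2.

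The receptor genes Ngfr and Gfra1 were above these ligands in scaled FPKM in both groups. Ngfr, the p75 neurotrophin receptor, rose from 15.5 and 16.5 to 337 and 447 scaled FPKM (log2 fold change 4.61 ± 0.24, adjusted p = 2.36e-07). Gfra1, the coreceptor that binds GDNF, rose from 31 and 31.2 to 220.4 and 282 (log2 fold change 2.90 ± 0.12, adjusted p = 4.82e-08). Members that fell were Gap43 (log2 fold change -0.95 ± 0.27), a protein of growing axons that Schwann cells also make, the adhesion molecule Ncam1 (log2 fold change -1.09 ± 0.18) and Spp1, osteopontin (log2 fold change -0.67 ± 0.12). Gfap, an intermediate filament gene, was at 5.71 and 5.45 and 8.64 and 6.8 and missed the threshold (log2 fold change 0.46 ± 0.17, adjusted p = 0.0554), but passed it in the fit of all 16 libraries (log2 fold change 0.56, adjusted p = 0.0121), with no filter on low counts (adjusted p = 0.0266) and with at least 10 counts in every library (adjusted p = 0.0490). L1cam, Etv5 and Artn did not pass either, and Olig1 had too few counts to be tested. Gap43 was not called without day 5 replicate 2 (log2 fold change -0.71) or uncrushed replicate 1 (log2 fold change -0.43). Gfap was called without day 5 replicate 2 (log2 fold change 0.63).

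Among called genes with a mean FPKM of at least 10 in the higher group, the 10 largest rises held 4 provisional gene records with no name and 6 named genes. Tyrp1, an enzyme known from melanin synthesis in pigment cells, which share an origin in the neural crest with Schwann cells, rose from 0.0986 and 0.186 to 22 and 31.7 scaled FPKM (log2 fold change 7.63 ± 0.47, adjusted p = 7.93e-07). Pcsk1, a convertase that cuts peptide hormone precursors, rose from 0.259 and 0.322 to 28 and 30.0 (log2 fold change 6.68 ± 0.14, adjusted p = 1.55e-09) and had the lowest p of all risers. Gpr83, a G protein-coupled receptor, rose from 0.542 and 0.507 to 31.6 and 35.4 (log2 fold change 5.97 ± 0.18, adjusted p = 7.46e-09). Ucn2, urocortin 2, a peptide of the corticotropin-releasing factor family, rose from 1.01 and 0.334 to 25.8 and 35.5 (log2 fold change 5.36 ± 0.32, adjusted p = 6.84e-07). The others were Fgf5 and Btc. The 10 risers with the lowest p added Cd24, a surface glycoprotein, which went from 7.56 and 5.73 to 111 and 121 (log2 fold change 4.10 ± 0.15, adjusted p = 3.02e-08). They also added a provisional record, Prc1 and members of groups described elsewhere. Ucn2 had a log2 fold change of 6.48 without uncrushed replicate 1.

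In the opposite direction Lect1, the gene of the cartilage protein chondromodulin, fell from 143 and 171 to 0.448 and 0.0841 scaled FPKM (log2 fold change -9.26 ± 0.28, adjusted p = 9.94e-09), the largest fall by this rule. Col2a1, a collagen best known from cartilage, fell from 66.2 and 77.1 to 1.85 and 1.94 (log2 fold change -5.24 ± 0.14, adjusted p = 3.88e-09). Mt3, a metallothionein, fell from 171 and 205 to 1.35 and 1.16 (log2 fold change -7.23 ± 0.32, adjusted p = 8.09e-08). Cryab, a small heat shock protein, was abundant in uncrushed nerve and fell from 1603 and 1630 to 36.2 and 36.1 (log2 fold change -5.49 ± 0.13, adjusted p = 2.20e-09). Sptb, the spectrin beta chain of red blood cells, fell from 18.8 and 19.8 to 0.579 and 0.477 (log2 fold change -5.28 ± 0.12, adjusted p = 1.55e-09), whereas none of the 6 red blood cell genes tested was called. Other genes among the largest falls were Sept3 (-6.79), Dcdc2 (-6.50), B3galt2 (-5.62) and the potassium channel Kcnk1 (-5.51, all log2 fold changes). Prrg3 and a provisional record had identical values in every library, so that its fall (log2 fold change -3.88 ± 0.11) cannot be assigned to either. Lect1 had a log2 fold change of -10.71 without day 5 replicate 1 and -8.48 without day 5 replicate 2. Sept3 had a log2 fold change of -5.88 without day 5 replicate 1 and -10.99 without day 5 replicate 2. Dcdc2 had a log2 fold change of -7.33 without day 5 replicate 2.

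Apod, apolipoprotein D, a lipid carrier, was chosen after its values were seen because its level at day 5 was the highest outside the mitochondrial genome. It rose from 3394 and 4732 to 16477 and 17758 scaled FPKM (log2 fold change 2.06 ± 0.18, adjusted p = 8.85e-06). The intermediate filament gene Vim, also picked by its level, rose from 1162 and 1306 to 3668 and 4011 (log2 fold change 1.63 ± 0.10, adjusted p = 8.38e-07).

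All 33 genes of cell division that could be tested rose, against a background of 18.9%, with a median log2 fold change of 2.56 and a range of 0.82 (Mcm4) to 3.81 (Rrm2). Rrm2, the ribonucleotide reductase subunit that supplies nucleotides for DNA synthesis, rose from 6.07 and 6.75 to 83.2 and 96.4 scaled FPKM (log2 fold change 3.81 ± 0.12, adjusted p = 9.94e-09). Ccnd1, cyclin D1, which acts at entry into the cycle, rose from 48.4 and 39.5 to 190.0 and 197 (log2 fold change 2.14 ± 0.11, adjusted p = 1.74e-07). Cdk1, the kinase of mitotic entry, rose from 6.4 and 7.98 to 50.7 and 51.2 (log2 fold change 2.83 ± 0.12, adjusted p = 7.79e-08) and its partner Ccnb1 from 1.55 and 1.63 to 14.3 and 16.8 (log2 fold change 3.28 ± 0.14, adjusted p = 6.58e-08). Mki67, a marker of cycling cells, rose from 7.69 and 7.07 to 38.1 and 45.9 (log2 fold change 2.51 ± 0.11, adjusted p = 1.04e-07). Genes of replication licensing rose less than those of mitosis, with log2 fold changes of 0.82 to 2.04 for Mcm2 to Mcm7 and of 2.32 to 3.28 for Bub1, Bub1b, Ndc80, Nuf2, Plk1, Aurka, Aurkb, Ccnb1 and Ccnb2, a difference that was not tested. Cdkn1a, an inhibitor of the cycle, also rose, from 4.73 and 4.04 to 12.1 and 11.5 (log2 fold change 1.43 ± 0.16, adjusted p = 4.80e-05). Prc1, a protein of the dividing spindle, was outside the list and among the 10 lowest p of risers (log2 fold change 2.55 ± 0.10, adjusted p = 4.37e-08).

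The promoter of Cdk1 is shown as an example of this group, at chr20:19265043-19265342 on the + strand (RefSeq, GRCr8, the same window). Capitals mark CCAAT, the sequence TTTGAA known from promoters of mitotic genes, and the letters TTTCCCGC, TTTGGCGC or TTTCGCGC that resemble sites of the E2F family, each read on both strands. No matches overlap in this promoter.
Cdk1: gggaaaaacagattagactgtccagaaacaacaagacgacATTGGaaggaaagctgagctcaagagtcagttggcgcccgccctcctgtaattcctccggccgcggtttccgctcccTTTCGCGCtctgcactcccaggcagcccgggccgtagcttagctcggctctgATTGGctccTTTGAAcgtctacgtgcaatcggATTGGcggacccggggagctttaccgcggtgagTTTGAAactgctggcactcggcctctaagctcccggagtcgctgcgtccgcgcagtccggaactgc
It holds 3 copies of CCAAT, 2 of TTTGAA and 1 of the E2F-like letters. Of 25 cell division genes with a promoter in the table, 12 hold TTTGAA (48.0%, against 19.4% of all genes), 15 hold CCAAT (60.0%, against 39.6%) and 7 the E2F-like letters (28.0%, against 1.93%). None of 15 cholesterol genes and none of 13 myelin protein genes with a promoter held the E2F-like letters. At 1.93% of all genes, none is also what the background gives in lists of this size.

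Markers of macrophages rose in 20 of 22 cases and fell in none, by 0.35 (Cd163) to 1.63 (Itgb2) on the log2 scale, with a median of 0.87. Their summed level was 896 and 839 scaled FPKM in the uncrushed libraries and 1956 and 1828 at day 5. Lyz2, lysozyme, the most abundant, rose from 326 and 329 to 937 and 863 (log2 fold change 1.45 ± 0.09, adjusted p = 5.76e-07). Ptprc, the CD45 antigen of all white blood cells, rose from 5.13 and 4.91 to 12.8 and 14.3 (log2 fold change 1.42 ± 0.10, adjusted p = 2.40e-06). Cd68, a lysosomal protein of macrophages, rose from 13 and 13.1 to 31.3 and 35.4 (log2 fold change 1.35 ± 0.11, adjusted p = 7.06e-06) and the receptor gene Csf1r from 32.6 and 33.8 to 49.1 and 47.4 (log2 fold change 0.54 ± 0.11, adjusted p = 0.00255). Cd163, a scavenger receptor, rose least of those called (log2 fold change 0.35 ± 0.12, adjusted p = 0.0378), and Lyve1 was at 59.4 and 52.4 and 55.1 and 52 and did not pass the test. The part of the higher macrophage RNA in the other results was not tested. Cd163 was not called without day 5 replicate 1 (log2 fold change 0.41) or day 5 replicate 2 (log2 fold change 0.31) or uncrushed replicate 2 (log2 fold change 0.22).

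Genes of phagocytosis and lipid handling rose in 18 of 24 cases and fell in 2, with a median of 0.80. Abca1, which exports cholesterol from cells, rose from 8.86 and 8.47 to 99.6 and 123 scaled FPKM (log2 fold change 3.68 ± 0.12, adjusted p = 1.37e-08), and its partner Abcg1 less (log2 fold change 0.88 ± 0.15, adjusted p = 0.0012). Apoe, which carries lipid between cells, rose from 259 and 279 to 799 and 795 (log2 fold change 1.55 ± 0.08, adjusted p = 3.31e-07). Gpnmb, a glycoprotein of lipid-laden phagocytes, rose from 14.5 and 15.4 to 102 and 108 (log2 fold change 2.81 ± 0.10, adjusted p = 2.87e-08), and Trem2, a lipid-sensing receptor, from 7.68 and 5.3 to 18 and 19.4 (log2 fold change 1.49 ± 0.18, adjusted p = 1.17e-04). The scavenger receptor Msr1 rose from 7.52 and 7.22 to 23.4 and 20.6 (log2 fold change 1.50 ± 0.12, adjusted p = 7.04e-06). Of the receptors that bind dying cells, Axl, Mertk and Tyro3 all rose (log2 fold change 0.74 ± 0.09, log2 fold change 0.73 ± 0.18 and log2 fold change 1.77 ± 0.35). Fabp5, a fatty acid binding protein, and Mfge8, a bridging protein, fell (log2 fold change -0.42 ± 0.10 and log2 fold change -0.39 ± 0.14). Mertk was not called without day 5 replicate 2 (log2 fold change 0.65) or uncrushed replicate 1 (log2 fold change 0.68). Tyro3 had a log2 fold change of 2.51 without uncrushed replicate 2. Fabp5 was not called without day 5 replicate 1 (log2 fold change -0.37). Mfge8 was not called without any 1 of the 4 libraries (log2 fold changes -0.46 to -0.32).

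Lysosomal genes rose in 17 of 25 cases and fell in 1, by smaller amounts (median 0.48). Lipa, the lipase that splits cholesteryl esters, rose most among genes with counts in both groups, from 10.8 and 12.2 to 45.2 and 47.7 scaled FPKM (log2 fold change 2.02 ± 0.10, adjusted p = 2.16e-07). Ctsb, a cathepsin, rose from 284 and 274 to 613 and 597 (log2 fold change 1.10 ± 0.09, adjusted p = 4.50e-06) and Galc, which breaks down the galactolipids of myelin, from 13.2 and 11.8 to 26.8 and 31 (log2 fold change 1.22 ± 0.11, adjusted p = 1.72e-05). The cathepsin gene Ctsk fell (log2 fold change -0.37 ± 0.11). Ctsk was not called without day 5 replicate 2 (log2 fold change -0.30) or uncrushed replicate 1 (log2 fold change -0.36) or uncrushed replicate 2 (log2 fold change -0.37).

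Complement genes rose in 18 of 20 cases, with a median of 1.14. Early components C1s, C2 and C3 rose (log2 fold change 1.23 ± 0.12, log2 fold change 1.43 ± 0.17 and log2 fold change 1.76 ± 0.22), and so did the fluid inhibitor Serping1 (log2 fold change 0.94 ± 0.10). The 2 genes that fell were Cd55 and Cd59, which protect cell surfaces from complement. Cd59 went from 394 and 464 to 263 and 246 scaled FPKM (log2 fold change -0.76 ± 0.13, adjusted p = 0.00117) and Cd55 from 37.4 and 31.3 to 20.6 and 18.2 (log2 fold change -0.80 ± 0.12, adjusted p = 4.16e-04). C4a and C4b are near-identical copies whose reads can be split between them, so their values are uncertain (log2 fold change 2.27 ± 0.23 and log2 fold change 1.15 ± 0.26). MHC class II genes, which present antigen, rose in 7 of 8 cases with a median of 1.68. Cd74, the invariant chain, rose from 63.9 and 71.5 to 200.0 and 227 (log2 fold change 1.62 ± 0.10, adjusted p = 7.49e-07), and RT1-Ba most (log2 fold change 2.37 ± 0.17, adjusted p = 2.18e-06); genes of the RT1 family also share sequence. C4a had a log2 fold change of 2.87 without uncrushed replicate 1. C4b was not called without day 5 replicate 1 (log2 fold change 0.87).

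Chemokines and cytokines rose in 11 of 20 tested cases and fell in 4; without day 5 replicate 1 the count of risers was 6 and without day 5 replicate 2, or in the fit of all 16 libraries, it was 7. Ccl2, which attracts monocytes, rose from 15.6 and 20.0 to 191 and 196 scaled FPKM (log2 fold change 3.45 ± 0.19, adjusted p = 3.66e-07). Cxcl10, an interferon-induced chemokine, rose from 9.01 and 2.97 to 20.7 and 21.3 (log2 fold change 1.73 ± 0.31, adjusted p = 0.00165) and Clcf1, a cytokine of the CNTF receptor, from 0.333 and 0.421 to 1.91 and 1.62 (log2 fold change 2.23 ± 0.33, adjusted p = 4.47e-04). Cntf, ciliary neurotrophic factor, which myelinating Schwann cells store, fell from 254 and 277 to 7.32 and 6.14 (log2 fold change -5.31 ± 0.12, adjusted p = 1.55e-09). Il34, a ligand of the receptor Csf1r, fell from 9.69 and 11.3 to 3.47 and 2.51 (log2 fold change -1.82 ± 0.26, adjusted p = 3.51e-04). Tnf, Il1a and Il10 had too few counts to be tested. Il6 had none in either uncrushed library and 7 and 8 at day 5. Cxcl10 had a log2 fold change of 2.81 without uncrushed replicate 1.

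Genes of the response to interferon did not move as a group at day 5, with 1 of 16 higher and 1 lower and a median of 0.01. The riser was Gbp2, a guanylate-binding protein, from 21.5 and 20.5 to 105 and 107 scaled FPKM (log2 fold change 2.33 ± 0.10, adjusted p = 6.58e-08), and the gene that fell was Rsad2 (log2 fold change -1.49 ± 0.36, adjusted p = 0.00773). The counts were 2 higher without uncrushed replicate 1 and 3 lower without uncrushed replicate 2. Rsad2 was not called without day 5 replicate 2 (log2 fold change -1.25).

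Neutrophil and lymphocyte genes were at low levels. Of 11 neutrophil genes 5 could be tested and Csf3r and Retnlg were called higher; the count was 0 without day 5 replicate 1 and 1 without uncrushed replicate 1. The defining genes Elane and Ltf had no count in any of the 4 libraries, and the summed level of the list was 4.80 to 8.49 scaled FPKM in uncrushed nerve and 8.40 to 15 at day 5. Of 19 genes of T, NK and B cells 9 could be tested and 4 rose, which was 2 without day 5 replicate 1. Cd8a, a chain of the coreceptor of cytotoxic T cells, rose from 0.925 and 0.297 to 3.81 and 4.18 (log2 fold change 2.61 ± 0.38, adjusted p = 4.19e-04), and Nkg7, a granule protein of cytotoxic cells, had 0 and 1 counts in uncrushed nerve and 26 in each day 5 library (ratio 31.2, exact 95% interval 5.36 to 1256). Nkg7 had a fitted log2 fold change of 4.73, of 3.58 without uncrushed replicate 1 and of 7.65 without uncrushed replicate 2. Cd79a and Pax5, which define B cells, had no count. Genes near 0 in uncrushed nerve passed the filter through the crushed groups, so only a rise could be called in them. With at least 10 counts required in every library, 0 genes of the neutrophil list and 0 of the T, NK and B cell list were called. Red blood cell genes, of which none was called, varied within groups, with a summed level of 998 and 3824 in uncrushed nerve and 2191 and 904 at day 5. Mast cell genes had a summed level of 358 to 373 in uncrushed nerve and 347 to 455 at day 5, with 1 of 8 called higher (Kit) and 2 lower (Tpsb2 and Tpsab1), the latter count being 0 without day 5 replicate 2 and 1 without any other library of the comparison. Cpa3, the mast cell carboxypeptidase, was at 236 and 229.6 and 299 and 234 and was not called. Cd8a had a log2 fold change of 3.76 without uncrushed replicate 1.

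**Figure D3:**
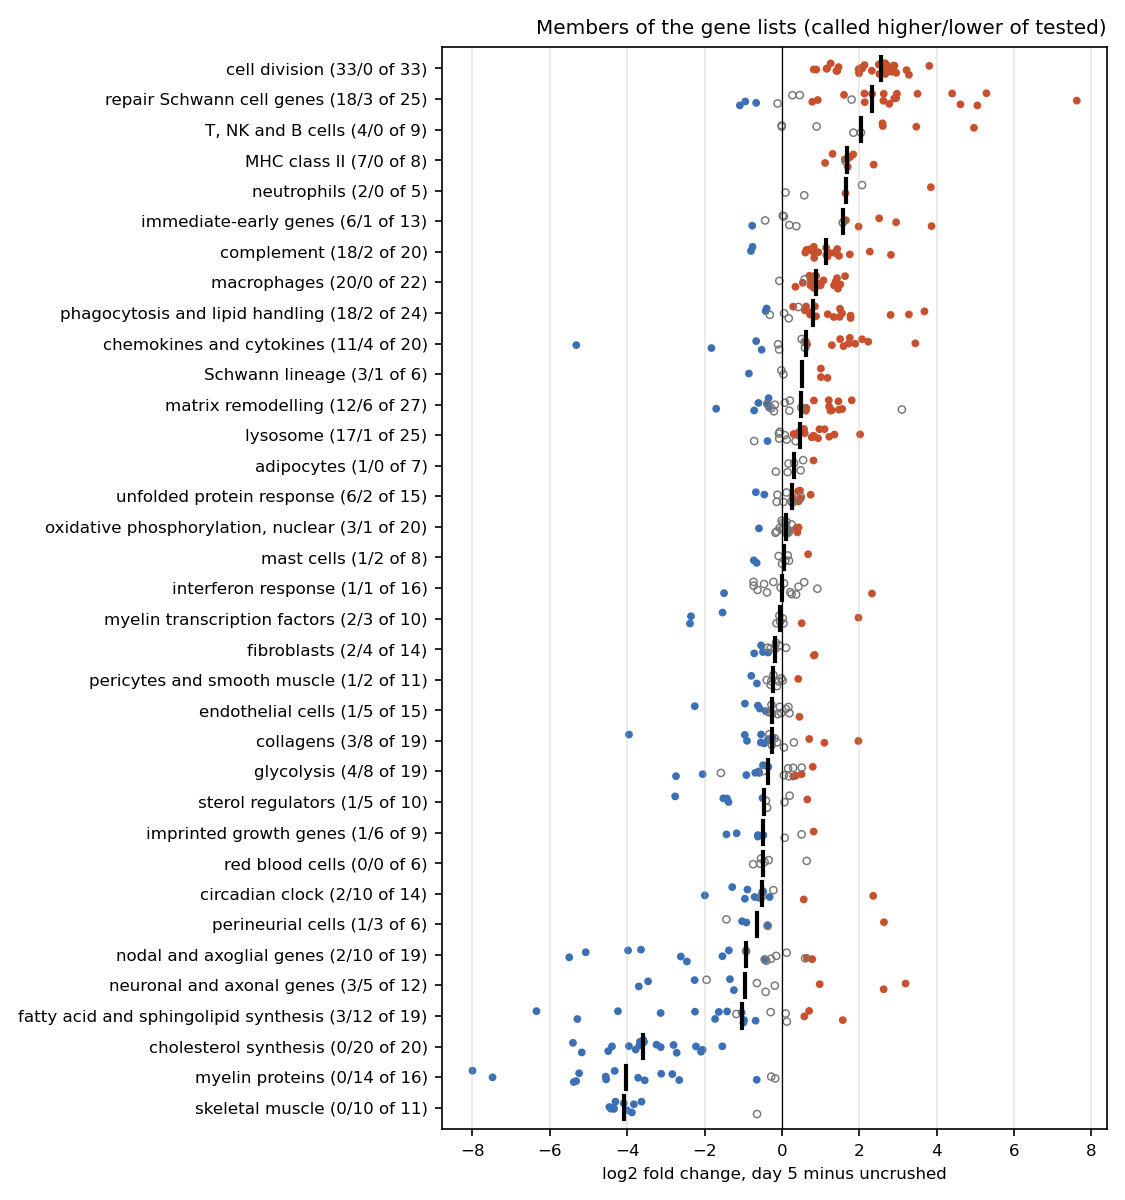
Log2 fold change (day 5 minus uncrushed) of each tested member of 35 gene lists, filled where called (red higher, blue lower) and open where not, with a bar at the median; the numbers beside a name are the members called higher and lower of those tested. Members at 0 or at 3 counts or fewer per library in 1 group are drawn at their bound or count ratio, Col1a2 is not drawn, and the lists run from skeletal muscle and myelin proteins with medians near -4 to cell division at 2.56.

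Of 15 endothelial genes 5 fell and 1 rose, with a median of -0.25, and the count of falls was 3 without day 5 replicate 1. Pecam1 and Cdh5, which mark all endothelium, were at 14.4 and 16 and 46.9 and 47.7 scaled FPKM in uncrushed nerve and at 18.4 and 16.5 and 54.9 and 51.7 at day 5, and neither was called. Mfsd2a, a lipid transporter of barrier endothelium, fell from 4.51 and 5.57 to 0.878 and 1.22 (log2 fold change -2.25 ± 0.25, adjusted p = 6.68e-05). The tight junction gene Cldn5 fell from 16.8 and 18.1 to 8.44 and 9.58 (log2 fold change -0.96 ± 0.15, adjusted p = 7.85e-04) and the drug transporter Abcb1a also fell (log2 fold change -0.57 ± 0.16, adjusted p = 0.0175). The other falls were those of the VEGF receptor Kdr and of Vwf, von Willebrand factor (log2 fold change -0.42 ± 0.10 and log2 fold change -0.62 ± 0.15), and the riser was the receptor Tie1 (log2 fold change 0.45 ± 0.14). Of 6 perineurial genes 3 fell and 1 rose, with a median of -0.65. Slc2a1, the glucose transporter of barriers, fell from 47.6 and 58.9 to 27.8 and 28.5 (log2 fold change -0.92 ± 0.11, adjusted p = 9.46e-05) and Itgb4, a laminin receptor that Schwann cells carry too, from 39.7 and 53.5 to 21.5 and 24.1 (log2 fold change -1.03 ± 0.15, adjusted p = 3.23e-04), while Msln, mesothelin, rose from 0.542 and 0.557 to 3.26 and 3.56 (log2 fold change 2.64 ± 0.26, adjusted p = 2.47e-05). Pericyte and smooth muscle genes had 2 of 11 lower and 1 higher, no larger shares than over all genes, with a median of -0.22. The falls were Des and Myh11 (log2 fold change -0.79 ± 0.23 and log2 fold change -0.65 ± 0.15), the riser was Tagln (log2 fold change 0.42 ± 0.14), and without day 5 replicate 1 none of the 11 was called. Abcb1a was not called without day 5 replicate 1 (log2 fold change -0.46) or uncrushed replicate 2 (log2 fold change -0.39). Kdr was not called without day 5 replicate 2 (log2 fold change -0.30) or uncrushed replicate 1 (log2 fold change -0.36). Vwf was not called without day 5 replicate 1 (log2 fold change -0.58) or uncrushed replicate 2 (log2 fold change -0.45). Tie1 was not called without day 5 replicate 1 (log2 fold change 0.36) or uncrushed replicate 2 (log2 fold change 0.35). Des was not called without day 5 replicate 1 (log2 fold change -0.89) or day 5 replicate 2 (log2 fold change -0.68) or uncrushed replicate 2 (log2 fold change -0.37). Myh11 was not called without day 5 replicate 1 (log2 fold change -0.58) or uncrushed replicate 1 (log2 fold change -0.40). Tagln was not called without day 5 replicate 1 (log2 fold change 0.46) or day 5 replicate 2 (log2 fold change 0.40) or uncrushed replicate 2 (log2 fold change 0.29).

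Of 14 fibroblast genes 4 fell and 2 rose, with a median of -0.24, or -0.17 without Col1a2, and 2 fell without day 5 replicate 2. Pdgfra, a receptor of fibroblasts, was at 35 and 38.2 and 35.7 and 34.8 scaled FPKM and was not called. Of 19 collagens 8 fell and 3 rose, and 5 fell without day 5 replicate 2. Col1a1, a chain of the main fibrillar collagen, fell from 1670 and 2183 to 1299 and 1355 (log2 fold change -0.54 ± 0.16, adjusted p = 0.0198), while Col1a2, its partner chain, is listed at or near 0 in all 4 libraries and at 45 and 270.4 on day 7, so that no fold is given and it counts among the members not called of both lists. Col28a1, a collagen found around Schwann cells, fell from 17.4 and 20.7 to 1.42 and 1.05 (log2 fold change -3.95 ± 0.17, adjusted p = 7.60e-08), and Col18a1, a basement membrane collagen, rose from 8.21 and 8.37 to 31.9 and 33.5 (log2 fold change 1.98 ± 0.12, adjusted p = 9.11e-07). In the fit of all 16 libraries, which moved the median of all genes to 0.07, the falls among endothelial, pericyte, fibroblast and collagen genes numbered 3, 0, 1 and 5. Col1a1 was not called without day 5 replicate 1 (log2 fold change -0.50) or day 5 replicate 2 (log2 fold change -0.56) or uncrushed replicate 2 (log2 fold change -0.33).

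Genes of matrix remodelling rose in 12 of 27 cases and fell in 6, the falls numbering 3 without day 5 replicate 1. The plasminogen activator Plat rose from 60.1 and 66 to 207 and 234 scaled FPKM (log2 fold change 1.80 ± 0.11, adjusted p = 8.79e-07) and its inhibitor Serpine2 from 80.2 and 85.2 to 208 and 253 (log2 fold change 1.48 ± 0.15, adjusted p = 2.87e-05). Timp1, an inhibitor of metalloproteinases, rose from 79.2 and 86.6 to 199.7 and 206 (log2 fold change 1.29 ± 0.09, adjusted p = 2.88e-06), while Timp2 and Timp3 fell (log2 fold change -0.33 ± 0.09 and log2 fold change -0.39 ± 0.08). Sparc, a matrix protein and the most abundant gene of this list, fell from 4305 and 4772 to 3034 and 2945 (log2 fold change -0.61 ± 0.09, adjusted p = 3.67e-04) and the related Sparcl1 from 152 and 186 to 50.6 and 53.6 (log2 fold change -1.70 ± 0.11, adjusted p = 1.10e-06). Fn1, fibronectin, rose from 207 and 232 to 393 and 387 (log2 fold change 0.83 ± 0.09, adjusted p = 3.42e-05). Timp2 was not called without day 5 replicate 1 (log2 fold change -0.31) or day 5 replicate 2 (log2 fold change -0.33) or uncrushed replicate 2 (log2 fold change -0.23). Timp3 was not called without day 5 replicate 1 (log2 fold change -0.31).

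Genes of energy metabolism were read by the genome that codes them. Against the fall of all 13 mitochondrial genome transcripts, the nuclear genes of oxidative phosphorylation had a median of 0.12, with 3 of 20 higher, 1 lower and 16 not called; none was lower without day 5 replicate 1 or without uncrushed replicate 2. The gene called lower was Ppargc1a (log2 fold change -0.59, adjusted p = 0.00762), a transcriptional coactivator and not a subunit. Cox4i1, a nuclear subunit of cytochrome oxidase, was at 189 and 176 and 207 and 171 scaled FPKM (log2 fold change 0.03, adjusted p = 0.838), whereas COX1, a subunit coded in mitochondria, went from 56346 and 51338 to 18492 and 16268 (log2 fold change -1.64 ± 0.10, adjusted p = 7.93e-07). Glycolysis genes fell in 8 of 19 cases and rose in 4, or 2 without day 5 replicate 2. The falls were led by Aldoc, an aldolase of nervous tissue (log2 fold change -2.74 ± 0.22, adjusted p = 5.56e-06), and Pfkm, the muscle phosphofructokinase (log2 fold change -2.05 ± 0.19, adjusted p = 1.47e-05), while Ldha, lactate dehydrogenase A, rose slightly (log2 fold change 0.36 ± 0.09, adjusted p = 0.00785). Of 15 genes of the unfolded protein response 6 rose and 2 fell. Hspa5, a chaperone of the endoplasmic reticulum, rose from 302 and 299 to 423 and 421 (log2 fold change 0.49 ± 0.08, adjusted p = 0.00123), the stress factor Atf4 fell (log2 fold change -0.45 ± 0.09, adjusted p = 0.00333), and the chaperone genes Canx and Dnajb9 and the stress factor Ddit3 were not called. Ldha was not called without day 5 replicate 2 (log2 fold change 0.33).

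Transcripts best known from neurons moved both ways, with 3 of 12 higher and 5 lower; the falls numbered 3 without day 5 replicate 1, and 2 without day 5 replicate 2 or without uncrushed replicate 1. Stmn2 and Stmn3, microtubule regulators of neurons, fell (log2 fold change -2.26 ± 0.32, adjusted p = 3.23e-04, and log2 fold change -3.70 ± 0.69, adjusted p = 0.00194). Nefh, the heavy neurofilament chain, had 21 and 12 counts in uncrushed nerve and 3 and 2 at day 5 (ratio of uncrushed to day 5 11, exact 95% interval 4.27 to 36.1), and was not called without day 5 replicate 1, day 5 replicate 2 or uncrushed replicate 1 (log2 fold changes -3.73, -3.04 and -3.23). The light and medium chains were higher and not lower. Nefm rose from 7.87 and 6.5 to 59.4 and 73.4 scaled FPKM (log2 fold change 3.20 ± 0.39, adjusted p = 1.06e-04) and Nefl from 13.9 and 13.6 to 75.4 and 95 (log2 fold change 2.63 ± 0.48, adjusted p = 0.00168).

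Skeletal muscle genes were called lower in 10 of 11 cases, but 1 library decided this. The list held 0.00560% and 0.104% of counts in uncrushed replicates 1 and 2 and 0.00177% and 0.00632% at day 5. Acta1, skeletal actin, was at 9.97 and 174 scaled FPKM in the uncrushed libraries and at 2.89 and 5.95 at day 5, so that uncrushed replicate 2 stood alone. Without that library none of the 11 genes was called and the median log2 fold change was -1.17 in place of -4.09. Without day 5 replicate 1 the count was 1, without day 5 replicate 2 it was 3, and DESeq2 on all libraries called 6. Fat cell genes likewise varied between the uncrushed libraries, where Adipoq, adiponectin, was at 405 and 211, against 544 and 363 at day 5. Of 7 adipocyte genes 1 was called higher (Cfd, also a complement gene), which became 6 without uncrushed replicate 1 and 0 without uncrushed replicate 2 or day 5 replicate 1.

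Immediate-early genes, which respond to stimuli within minutes, were higher in 6 of 13 cases and lower in 1. Fosl1, a partner of Jun, rose from 0.271 and 0.322 to 3.33 and 5.23 scaled FPKM (log2 fold change 3.87 ± 0.36, adjusted p = 1.78e-05), Fos from 3.04 and 2.51 to 10.4 and 11.9 (log2 fold change 1.98 ± 0.23, adjusted p = 7.06e-05) and Egr3 from 1.5 and 1.36 to 7.42 and 9.14 (log2 fold change 2.51 ± 0.23, adjusted p = 1.27e-05). Egr1 was at 13.4 and 26.8 and 25.9 and 25.5 and was not called. Circadian clock genes fell in 10 of 14 cases and rose in 2, the falls numbering 5 without day 5 replicate 1 and 6 without day 5 replicate 2, and the rises 1 without day 5 replicate 2 or without uncrushed replicate 1. Clock itself fell from 24.9 and 22.8 to 12.7 and 13 (log2 fold change -0.89 ± 0.09, adjusted p = 2.63e-05), and its paralogue Npas2 rose from 1.75 and 2.29 to 8.88 and 11.7 (log2 fold change 2.36 ± 0.21, adjusted p = 1.39e-05); the hour of collection was not among the labels. Of 9 genes listed as imprinted growth genes, a class that declines after birth in many tissues, 6 fell and 1 rose. The riser was Igf2bp3 (log2 fold change 0.82, adjusted p = 0.00991). Igf2, insulin-like growth factor 2, fell from 420.0 and 389 to 152 and 149.5 (log2 fold change -1.43 ± 0.09, adjusted p = 1.24e-06) and H19, the noncoding RNA beside it, from 948 and 769 to 425 and 341 (log2 fold change -1.17 ± 0.13, adjusted p = 6.63e-05). The part of age in these falls was not tested.

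The same interval was then compared between whole nerve and purified Schwann cells, to find where the tissue and its main glial cell differ. In a fit of all 16 libraries, 6033 of 16829 genes were called at day 5 in whole nerve (35.8%) and 8566 in Schwann cells (50.9%). The effect itself differed between the tissues for 4633 genes (27.5%), with 2513 higher in whole nerve (14.9%) and 2120 lower (12.6%). With upper quartile scaling the balance turned, to 2244 higher and 2432 lower. In 3491 genes both tissues were called in the same direction, and in 519 they were called in opposite directions and the difference was called too. Of these 519, 307 rose in whole nerve and fell in Schwann cells and 212 did the reverse. A fold in purified cells is relative to uncrushed Schwann cells that had been dissociated and panned, whereas whole nerve was not dissociated.

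Among the 5 largest opposite differences in each direction, leaving out provisional records, the genes higher in whole nerve were Fcgr2b, Cxcl9, C4a and Col11a1. Fcgr2b, an inhibitory antibody receptor, had a log2 fold change of 1.78 in whole nerve and of -4.71 in Schwann cells. Col11a1, a fibrillar collagen chain, was at 0.80 and -4.87, and fell in Schwann cells from 21.5 and 23.1 to 0.917 and 0.622 scaled FPKM (scaled over all 16 libraries). In the reverse direction stood Ndp, norrin, a ligand of Frizzled receptors (-2.02 in whole nerve and 2.38 in Schwann cells), Ntn4, a netrin of basement membranes, Ralgps2 and Igfbp6, a binding protein of insulin-like growth factors. Igfbp6 was at 226 and 281 scaled FPKM in uncrushed whole nerve but under 1 in uncrushed Schwann cells.

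Members of the gene lists differed too. The day 5 effect differed in 27 of 33 cell division genes, always with the larger rise in whole nerve (median 2.66 against 1.39), and in 13 of 16 myelin protein genes, always with the deeper fall in whole nerve (median -3.92 against -1.89). The log2 fold change of Pmp2 was -4.22 in the whole tissue against -0.07 in Schwann cells (difference -4.16 ± 0.202, adjusted p = 1.73e-08). Cntf fell in both tissues and more in whole nerve (-5.22 against -0.77), and uncrushed Schwann cells held only 32.5 and 26.6 scaled FPKM of it. Apoe rose in whole nerve and fell in Schwann cells (1.65 and -2.24), and Spp1 did the reverse (-0.57 and 2.18). The effect was above that of Schwann cells in 14 of 19 collagens and 10 of 13 immediate-early genes. Of the collagens 15 fell in Schwann cells and 2 rose (median -2.20), against a median of -0.18 in whole nerve. Immediate-early genes fell there in 10 cases and rose in 1 (median -1.67, and 1.70 in whole nerve). Genes of other cell types fell in the purified samples too, in 4 of 11 pericyte and smooth muscle genes (0 rose) and 6 of 14 fibroblast genes (1 rose). The part of other cells in the purified samples was not tested. Atf3 was at 402 and 403 scaled FPKM in uncrushed Schwann cells, where whole nerve had 4.11 and 7.01, and Ccl2 at 496 and 457 against 15.6 and 20.0. In the repair list the effect differed in 16 of 25 genes, 7 with the higher effect in whole nerve and 9 with the lower. The repair genes Ngfr, Gfra1, Runx2, Fgf5 and Btc and the convertase gene Pcsk1 rose in both tissues and their effects were not shown to differ (adjusted p = 0.0681 for Btc and higher for the others).

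**Figure D4:**
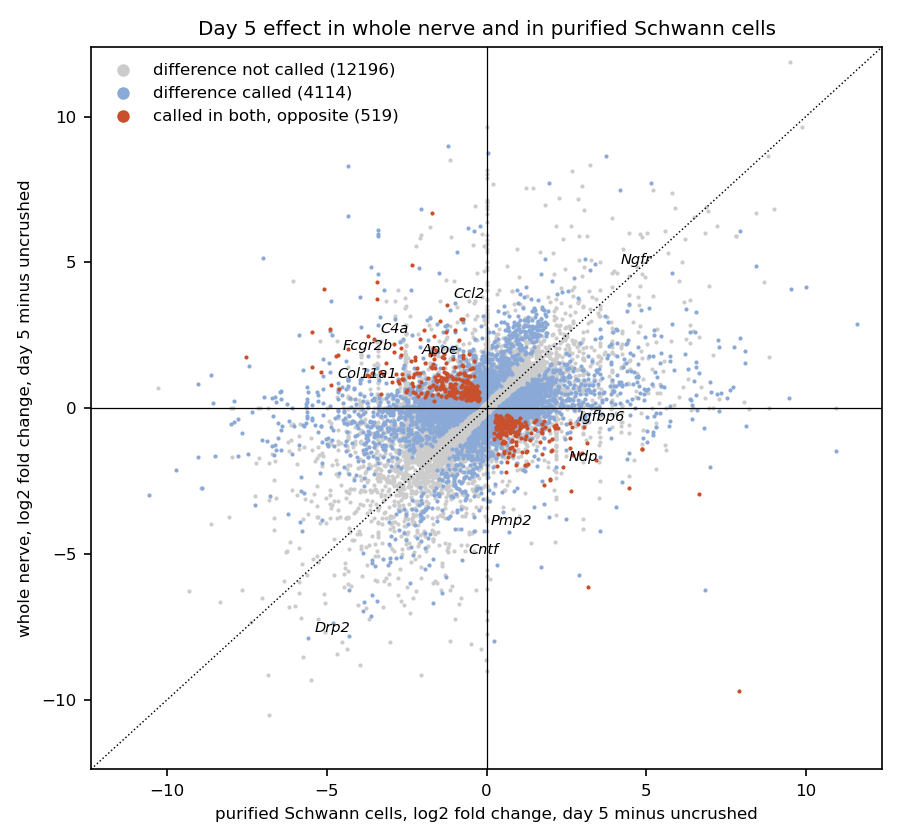
Each point is 1 of 16829 genes, with the log2 fold change from uncrushed to day 5 in purified Schwann cells on the horizontal axis and in whole nerve on the vertical axis, both from the fit of all 16 libraries, and a dotted line where they are equal. The 519 genes called in opposite directions are red, 307 of them in the upper left and 212 in the lower right, and the other genes whose effects differed are blue.

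Day 5 was also set beside days 3 and 7 in whole nerve. Against uncrushed nerve 7212 genes were called at day 3 (45.6%), 6082 at day 5 and 4952 at day 7 (31.3%), and these 3 comparisons share the uncrushed libraries. From day 3 to day 5, 1828 genes changed (11.5%), 899 up (5.68%) and 929 down (5.87%). From day 5 to day 7, 1172 changed (7.40%), 578 up (3.65%) and 594 down (3.75%), or 676 up and 472 down with upper quartile scaling. Without any 1 of the 4 libraries compared, 510 to 652 genes were called between days 3 and 5, and between days 5 and 7 the count was 323 without day 5 replicate 2, 398 without day 5 replicate 1, 520 without day 7 replicate 1 and 862 without day 7 replicate 2.

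Of the macrophage markers 21 of 22 were lower at day 5 than at day 3 and none was higher; without day 3 replicate 1 the count was 13 and without day 3 replicate 2 it was 12. Of the cell division genes 22 of 33 were lower at day 5 than at day 3, a count of 12 without day 3 replicate 1, 6 without day 3 replicate 2, 6 without day 5 replicate 1 and 14 without day 5 replicate 2. Between days 5 and 7, 24 of them fell, or 14 without day 5 replicate 2 or without day 7 replicate 1. The level of Rrm2 went from 143 and 141 scaled FPKM on day 3 through 83.2 and 96.4 on day 5 to 38.5 and 35.4 on day 7 (day 7 against day 5, log2 fold change -1.28 ± 0.10, adjusted p = 1.32e-04). Of the myelin protein genes 6 of 16 were higher at day 5 than at day 3 and 1 was lower, and 12 were higher at day 7 than at day 5. Cldn19, a tight junction protein of myelin, had the lowest p in the first step, from 4.66 and 3.72 at day 3 to 31.7 and 33.1 at day 5 (log2 fold change 3.30 ± 0.14, adjusted p = 3.32e-06), and reached 128 and 134 at day 7 against 346 and 407 in uncrushed nerve. Drp2 ran the other way in the first step, from 2.5 and 1.74 down to 1.03 and 1.16 (log2 fold change -0.95 ± 0.16, adjusted p = 0.00564), and was at 7.86 and 8.03 at day 7; without day 5 replicate 1 its fall from day 3 was not called (log2 fold change -0.87). Cholesterol genes fell in 3 of 20 cases and rose in 1 between days 3 and 5, with 1 fall without day 3 replicate 2 or without day 5 replicate 2. Between days 5 and 7, 11 rose, or 5 and 4 without day 5 replicates 1 and 2 and 6 without either day 7 library.

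Other genes with the lowest p between days 3 and 5 were Sh3gl3, an endophilin (log2 fold change 2.45 ± 0.11, adjusted p = 3.32e-06), and the protease Tmprss5 (log2 fold change 2.08 ± 0.10, adjusted p = 4.27e-06), both higher at day 5, and Spp1, Lyve1 and Mt2A, all lower. Spp1 was at 156 and 189 scaled FPKM at day 3 and 43 and 45.9 at day 5 (log2 fold change -1.97 ± 0.12, adjusted p = 1.89e-05), so that it was below uncrushed nerve at day 5 and above it 2 days before. Lyve1 went from 147 and 135 to 55.1 and 52 (log2 fold change -1.40 ± 0.09, adjusted p = 4.55e-05) and the metallothionein Mt2A from 198 and 255 to 44.3 and 48.2 (log2 fold change -2.35 ± 0.17, adjusted p = 6.31e-05). Between days 5 and 7 the lowest p among risers belonged to Col2a1 (log2 fold change 2.59 ± 0.13, adjusted p = 2.32e-05), Cldn19 (log2 fold change 2.03 ± 0.12) and Gldn (log2 fold change 1.93 ± 0.12, adjusted p = 5.85e-05), and among falls to Pcsk1 (log2 fold change -1.36 ± 0.09, adjusted p = 6.92e-05), a provisional record and Rrm2. Interferon response genes were higher at day 7 than at day 5 in 9 of 16 cases and lower in 1.

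**Figure D5:**
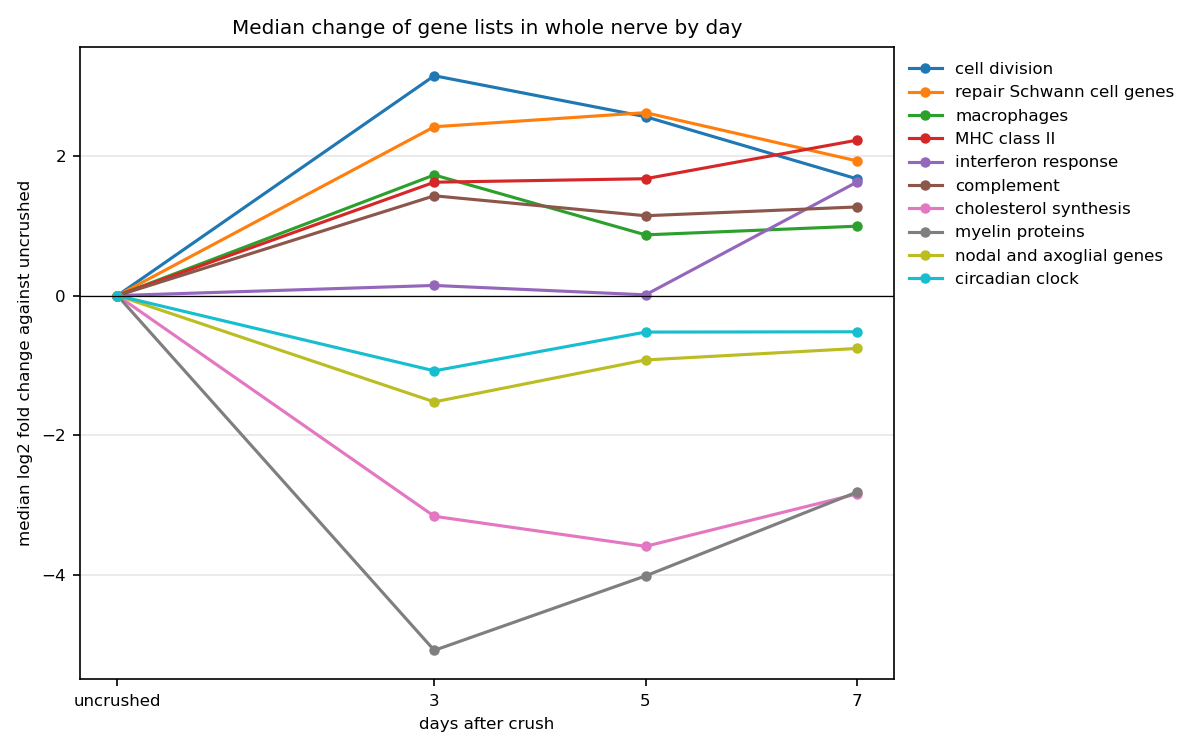
Median log2 fold change against uncrushed whole nerve of 10 gene lists at 3, 5 and 7 days after crush, with uncrushed nerve at 0 by definition; genes at 0 counts enter at their fitted values. The median of cell division peaks at day 3 and is 2.56 at day 5, and that of the interferon response is 0.01 at day 5 and 1.63 at day 7. The median of myelin proteins rises from its day 3 low to -4.02, with 6 of 16 genes called higher than at day 3 and 1 lower. That of cholesterol synthesis is lowest at day 5 with -3.60, but only 3 of 20 genes were called lower than at day 3 and 1 higher.

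The authors sorted 6274 genes into 10 modules by their course in purified Schwann cells, and these were read in whole nerve, in libraries that had no part in making them. The largest, module 10, with 2537 genes tested, had 853 higher (33.6%) and 221 lower (8.71%) in whole nerve at day 5. In module 8, 273 of 595 were higher (45.9%) and 79 lower (13.3%). Module 7 had the largest share of falls, 261 of 425 (61.4%), with 37 higher (8.71%) and a median log2 fold change of -0.61. The same genes had a median of -1.92 in Schwann cells, but their course in those cells is what formed the module, so the medians cannot be compared. Modules 1 to 4, with 54 to 83 genes tested each, had 50.6% to 55.0% lower and 3 to 7 genes higher. Module 9 had 19.3% of 2133 genes higher, near the background of 18.9%, and 14.1% lower, against 19.5%. In module 5 10 of 86 genes were higher and 5 lower.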

How the data were processed

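RNA was measured in 16 libraries, 2 in each of 8 groups, from amplified cDNA; the kit is not stated to mark strand, so overlapping antisense genes cannot be separated. Per the labels and the study's methods, the authors aligned reads with STAR and estimated expression with RSEM on Rnor_6.0 with base calls by CASAVA. The deposited expected counts, which RSEM splits among similar genes, were rounded to whole numbers. TPM values that the authors deposited were not used. FPKM values deposited by the authors were divided by each library's TMM factor for every printed level, a change from the plan to print them as deposited, since composition differed between the groups.

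edgeR 4.0.16 (R 4.3.3, limma 3.58.1) fitted the 8 whole nerve libraries with TMM scaling, its default filter on low counts and a quasi-likelihood test, called at a Benjamini-Hochberg adjusted p of 0.05. Each SE was taken as the size of the log2 fold change over the square root of its F. The tissue difference was an interaction term over 16 libraries. The 2 libraries of a group differed beyond counting noise (chi-square per degree of freedom 9.27 to 25.3 in whole nerve). Groups at 0 counts were set at a floor of 3 counts per library, and those with 1 to 3 counts per library got a count ratio with a 95% Clopper-Pearson interval; intervals and floors cover counting error only, since no molecular identifiers were used. Genes were named by rule: list members, the 10 largest changes and 10 lowest p per direction with deposited FPKM of at least 10, the 5 largest opposite tissue effects and the 3 lowest p between days; within lists, examples were picked for level, size of change and role, and provisional records were counted but not named, and some list members are not reported here. The members and lists were chosen with earlier results of these data known. Alternatives changed the test, scaling, filter, threshold, libraries and replicate block, with DESeq2 1.42.0 for the test. The scripts were tested on simulated data. Promoters came from RefSeq (GRCr8), matched by symbol. In the authors' module table the 8 per-sample columns were not used and only the module numbers were read.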

Additional observations from a re-analysis of the deposited data

Results flagged for a closer look

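The effect of 5 days after crush differed between whole nerve and purified Schwann cells by the test of the difference itself (edgeR interaction term, 2 libraries per group) in every gene given here. The difference, whole nerve minus Schwann cells on the log2 scale, was positive for Fcgr2b (6.50, adjusted p = 1.21e-05), Cxcl9 (6.49, adjusted p = 0.00338), C4a (5.90, adjusted p = 6.77e-07), Col11a1 (5.68, adjusted p = 3.44e-09), Ccl2 (4.78, adjusted p = 4.38e-07), Apoe (3.89, adjusted p = 2.75e-08) and Atf3 (3.84, adjusted p = 2.25e-07). It was negative for Cntf (-4.45, adjusted p = 3.44e-09), Ndp (-4.40, adjusted p = 6.77e-07), Pmp2 (-4.16, adjusted p = 1.73e-08), Ntn4 (-3.98, adjusted p = 3.65e-05), Ralgps2 (-3.43, adjusted p = 1.65e-06), Igfbp6 (-3.32, adjusted p = 3.19e-05) and Spp1 (-2.74, adjusted p = 7.47e-07). Cxcl9 was listed at 0 in both Schwann cell libraries at day 5, so the size of its difference depends on the prior count of the fit. Leaving out 1 library moved the difference, taken as a fold and not on the log2 scale, by more than 1.5 times for C4a, Fcgr2b and Ntn4. Without Schwann cell day 5 replicate 1 the log2 difference was 6.65 for C4a and 7.37 for Fcgr2b. For Ntn4 it was -3.32 and -5.00 without Schwann cell uncrushed replicates 1 and 2. Groups of 2 libraries are too small for a test of single outlying samples.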

How the results depend on the processing

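For day 5 against uncrushed whole nerve, DESeq2 called 5115 genes, the other scalings, filters and sample sets 5427 to 6647, and the fits that left out 1 library 4290 to 5010, all within 1.5 times the 6082 reported. A test against a 2-fold change called 1259 (584 higher, 675 lower), 40 between days 3 and 5, 30 between days 5 and 7 and 997 for the difference between tissues. Without a filter on low counts 2247 genes were called between days 5 and 7 and 2682 between days 3 and 5. Leaving out 1 library gave 510 to 652 genes between days 3 and 5, 323 to 862 between days 5 and 7 and 3518 to 4566 for the difference between tissues. Replicate numbers are shared between groups, but same-numbered whole nerve libraries did not deviate together (correlations -0.058 to 0.084, where over 0.1 was required), and with 2 pairs a hint from every library's best match cannot be had. With a replicate block, 6237 genes were called at day 5, 2117 between days 3 and 5, 1427 between days 5 and 7 and 4542 for the difference between tissues. Of 2663 values of the named genes under alternatives, 2497 kept their direction and side of the threshold, 153 lost the call, 5 gained it and 8 changed sign; the sign changes were in uncalled genes, whose log2 fold changes without 1 library were -0.15 to 0.26 for Sox10, -0.50 to 0.0152 for Tspan2, -0.0807 to 0.27 for Fasn, -0.0899 to 0.16 for Cox4i1 and -0.0253 to 0.115 for Canx. DESeq2 did not call Pou3f2, Mfge8, Ctsk, Col1a1, Cfd, Tie1, Tagln and Tpsab1, and the fit of all 16 libraries did not call Pou3f2, Mfge8, Ctsk, Col1a1, Csf1r, Csf3r, Cd163, Cd55, Abcb1a, Timp2, Des, Myh11, Kdr, Tie1, Tagln, Tpsb2 and Tpsab1, but called Gfap; the fit of the 4 libraries alone did not call Cfd, Tie1, Tagln and Tpsab1; upper quartile scaling did not call Mfge8 and Tpsab1, and the causes were not tested. The 2-fold threshold ended the call of 58 named genes. Of 650 counts of list members under alternatives 550 stayed within 1.5 times and 100 did not. Depth limits genes with a few counts per library, such as Gdnf, Shh and Bdnf in uncrushed nerve.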
